A study of Homo sapiens with 6 samples.

Results

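The genes described here are those of human chromosome 3 that were well counted in HK-2 cells, which are rows of the gene count table placed on chromosome 3 with a mean of at least 100 counts over the 6 libraries. They number 700 of the 1746 chromosome 3 rows, out of 31831 genes in the whole table, of which 12376 reached the same mean on all chromosomes. HK-2 is an immortalized line of human renal proximal tubule epithelium. The cells carried a control lentivirus with the empty vector (HG-NC) or a lentivirus, in the expression vector LV5, that overexpressed hnRNP-F (HG-OE), and both groups were kept in 30 mM glucose for 72 h, with 3 libraries in each. The sources used here do not say whether the infected cells were a pool or a clone. The chromosome was picked because its genes had been seen to differ between these same groups, so the differences below are described and not tested, and no number of chromosome 3 genes past a threshold is read as a result.

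Chromosome 3 carries on its short arm VHL, PBRM1, BAP1 and SETD2, tumour suppressors best known from clear cell carcinoma of the kidney, a tumour that arises from the proximal tubule. Its long arm carries PIK3CA, the catalytic subunit of a lipid kinase downstream of growth factor receptors, and many genes of the inflammatory and interferon responses. Neighbouring genes lie in shared chromatin domains, and genes that start head to head can share a promoter region, but each gene also answers to its own regulators.

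The promoters below belong to members that lay far from the other genes of their arm or that differed strongly in opposite directions. Each is the 250 bases before the start of the gene, read 5′ to 3′ on the strand of the gene in the RefSeq promoter table for GRCh38.p14. Capitals mark matches, on either strand, to the consensus of NF-kB or to CCAAT.
COL7A1, minus strand, chr3:48595330-48595579: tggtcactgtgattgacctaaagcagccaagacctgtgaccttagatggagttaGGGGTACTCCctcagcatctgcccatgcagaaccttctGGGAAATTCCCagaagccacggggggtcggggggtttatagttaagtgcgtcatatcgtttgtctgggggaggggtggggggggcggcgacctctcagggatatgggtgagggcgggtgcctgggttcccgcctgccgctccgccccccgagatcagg
CACNA2D3, plus strand, chr3:54122302-54122551: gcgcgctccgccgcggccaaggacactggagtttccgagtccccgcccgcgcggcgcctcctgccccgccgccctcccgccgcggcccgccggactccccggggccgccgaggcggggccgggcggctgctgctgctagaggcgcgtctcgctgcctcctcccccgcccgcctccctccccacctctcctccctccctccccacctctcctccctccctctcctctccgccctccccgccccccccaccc
CLSTN2, plus strand, chr3:139934935-139935184: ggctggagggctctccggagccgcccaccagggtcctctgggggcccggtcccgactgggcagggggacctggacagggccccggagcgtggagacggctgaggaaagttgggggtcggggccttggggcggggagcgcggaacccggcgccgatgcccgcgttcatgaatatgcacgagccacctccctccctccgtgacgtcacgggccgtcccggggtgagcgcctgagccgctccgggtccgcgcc
PTX3, plus strand, chr3:157436600-157436849: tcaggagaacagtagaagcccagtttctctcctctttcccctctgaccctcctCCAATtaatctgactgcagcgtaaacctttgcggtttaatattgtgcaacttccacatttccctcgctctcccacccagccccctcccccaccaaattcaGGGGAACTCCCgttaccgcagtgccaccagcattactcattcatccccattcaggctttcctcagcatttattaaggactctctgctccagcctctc
COL7A1 and CACNA2D3 lie on the short arm, and CLSTN2 and PTX3 on the long arm. The sequence before COL7A1, the collagen of anchoring fibrils, held 3 matches to the NF-kB consensus, of which 2 overlap, and none to CCAAT, and the level of COL7A1 was higher in HG-OE. The sequence before PTX3, a secreted pattern recognition protein of the pentraxin family, held 2 overlapping matches, 1 on each strand, and 1 CCAAT, and the level of PTX3 was lower in HG-OE. The sequences before CACNA2D3 and CLSTN2 held no match to either motif, and both genes were higher in HG-OE. A match to the NF-kB consensus stood in 1380 of all 27305 promoters of the table (5.05%), in 18 of 280 short-arm members (6.43%) and in 17 of 312 long-arm members (5.45%). A CCAAT on either strand stood in 33.04% of all promoters, 32.1% of the short-arm members and 33.01% of the long-arm members.

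The libraries held 25507595 to 29444841 counts, and the gene of hnRNP-F had 304, 319 and 311 CPM (counts scaled to library size by the TMM method of edgeR) in HG-NC replicates 1, 2 and 3 and 430, 452 and 423 CPM in HG-OE replicates 1, 2 and 3. The species of the overexpressed sequence could not be settled from the sources used here, so these are the levels assigned to the human gene and may not measure the transgene. Of 9 proximal tubule markers, PAX8 carried most of the summed level, which was 749 to 817 CPM in HG-NC and 554 to 633 CPM in HG-OE. LRP2, the endocytic receptor of the tubule, had no counts in 5 of the 6 libraries, and AQP1 and ANPEP stood under 2 CPM in all 6. The 4 epithelial markers summed to 605 to 611 CPM in HG-NC and 977, 1002 and 1563 CPM in HG-OE replicates 1, 2 and 3. KRT8 and KRT18 were higher and EPCAM lower in every HG-OE library. KRT8 had 629, 653 and 983 CPM and KRT18 278, 282 and 488 CPM in HG-OE replicates 1, 2 and 3. CDH1 had 13.1 CPM in HG-OE replicate 3 and at most 0.343 CPM elsewhere. The 2 mesenchymal markers, nearly all VIM, summed to 806 to 813 CPM in HG-NC and 1428 to 1567 CPM in HG-OE. The part of these differences in the results below was not tested. HG-OE replicate 3 stood apart in markers of other cell types. Its 4 hepatocyte markers summed to 546 CPM against 457 and 458 CPM in the other HG-OE libraries and 261 to 275 CPM in HG-NC, with ALB at 149 CPM against at most 2.79 CPM elsewhere. Most of each sum was SERPINA1, at 258 to 275 CPM in HG-NC and 457, 458 and 395 CPM in HG-OE. SERPINA1 was thus lower in replicate 3 than in the other HG-OE libraries. Its 4 squamous markers summed to 37.5 CPM against at most 0.103 CPM elsewhere. The arm medians, the segment edge, the list medians and some single genes are given below with and without this library. Counts of list members past a threshold rest on all 6 libraries.

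Along the chromosome, the ratio of HG-OE to HG-NC changed its sign near the centromere. On the short arm, the median of the log2 fold change over 326 tested genes was 0.43, a ratio of 1.351, and on the long arm 372 tested genes had a median of -0.17, a ratio of 0.887. The arms were divided at the widest stretch without an annotated protein-coding gene, which runs over 4.39 Mb from chr3:89482135-93873050 between EPHA3 and PROS1. Over both arms, the members had a median of 0.07, since the arms stood on either side of 0. In bulk RNA, fewer cells of a type and less RNA per cell cannot be told apart.

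**Figure D1:**
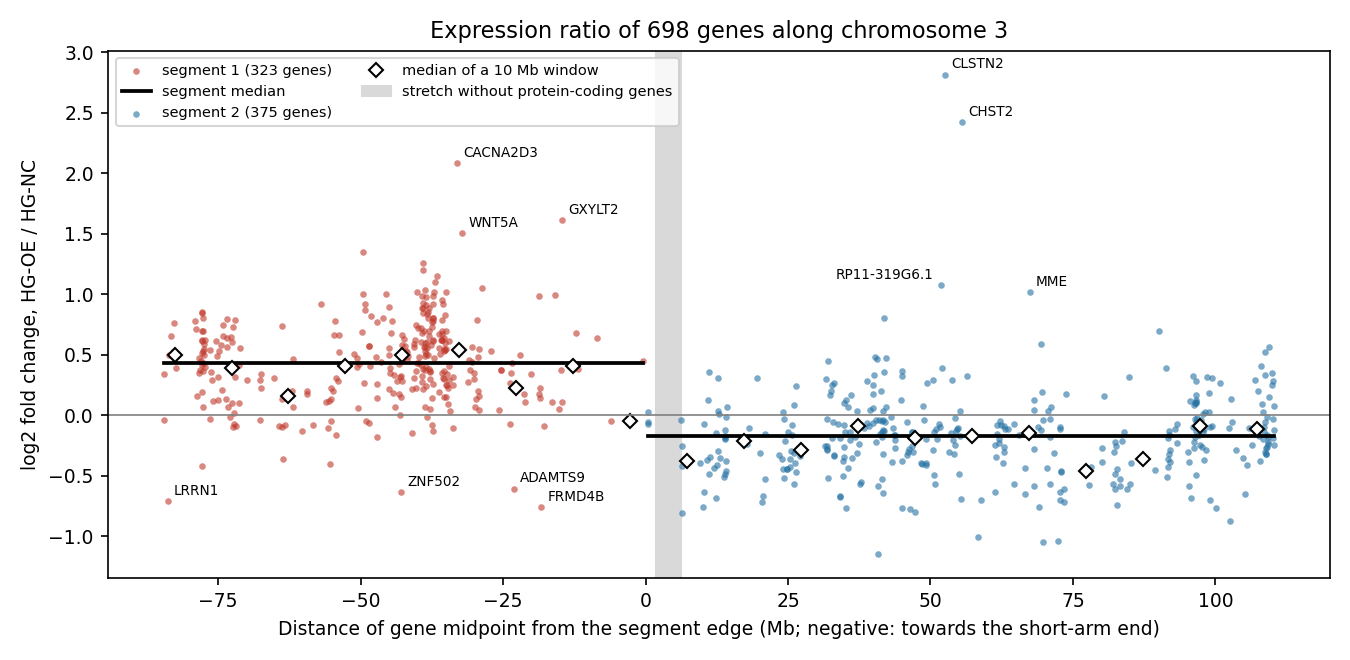
Each point is one of the 698 tested chromosome 3 genes, with its distance in Mb from the segment edge on the x axis and its log2 fold change of HG-OE over HG-NC on the y axis. Black lines are the medians of the 2 segments, 0.44 and -0.17, diamonds are medians of 10 Mb windows, and the grey band is the stretch without protein-coding genes. Named genes lie 1 log2 unit or more from their segment's median.

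The shift was present in each HG-OE library. Relative to the mean of the HG-NC libraries, the short-arm median of the log2 ratio was 0.45, 0.44 and 0.44 in HG-OE replicates 1, 2 and 3. Each HG-NC library was set against the mean of the other HG-NC libraries, which gave -0.0057, -0.0037 and 0.0058 in HG-NC replicates 1, 2 and 3. The long-arm median was -0.16, -0.18 and -0.19 in HG-OE and 0.014, -0.011 and -0.0042 in HG-NC. The 3 HG-OE libraries lay above all HG-NC libraries on the short arm and below all of them on the long arm, with no overlap. Over 11667 genes of other chromosomes with the same mean counts, the HG-OE medians were -0.014, -0.013 and -0.015. Without HG-OE replicate 3 the arm medians of the fitted log2 fold change were 0.43 and -0.17.

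In counts, the short-arm genes took 1.59%, 1.58% and 1.59% of all counts in HG-NC and 2.24%, 2.25% and 2.26% in HG-OE. The long-arm genes took 3.18%, 3.15% and 3.16% in HG-NC and 2.71%, 2.66% and 2.63% in HG-OE. The long arm thus held about as many members as the short arm but more of the counts in every library, and the difference between the arms was smaller in HG-OE.

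Of all 17142 genes tested, 25.9% were higher and 25.9% lower at an adjusted p under 0.05 (edgeR quasi-likelihood test with Benjamini-Hochberg adjustment), and 29.6% and 29.4% had HG-OE libraries that all lay above or all below the HG-NC libraries. For the 12365 tested genes with a mean of at least 100 counts these shares were 29.7% and 32.2% by the adjusted p, and 32.6% and 35.2% without overlap. Among the short-arm genes, 256 of 326 passed this threshold as higher (78.5%) and 6 as lower (1.84%). Among the long-arm genes, 45 of 372 passed as higher (12.1%) and 200 as lower (53.8%). Past a 2-fold change as well, 19 of 698 chromosome 3 genes were higher (2.72%) and 4 lower (0.573%), against 3.69% and 2.13% of all genes tested and 1.63% and 1.08% of the genes with a mean of at least 100 counts.

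**Figure D2:**
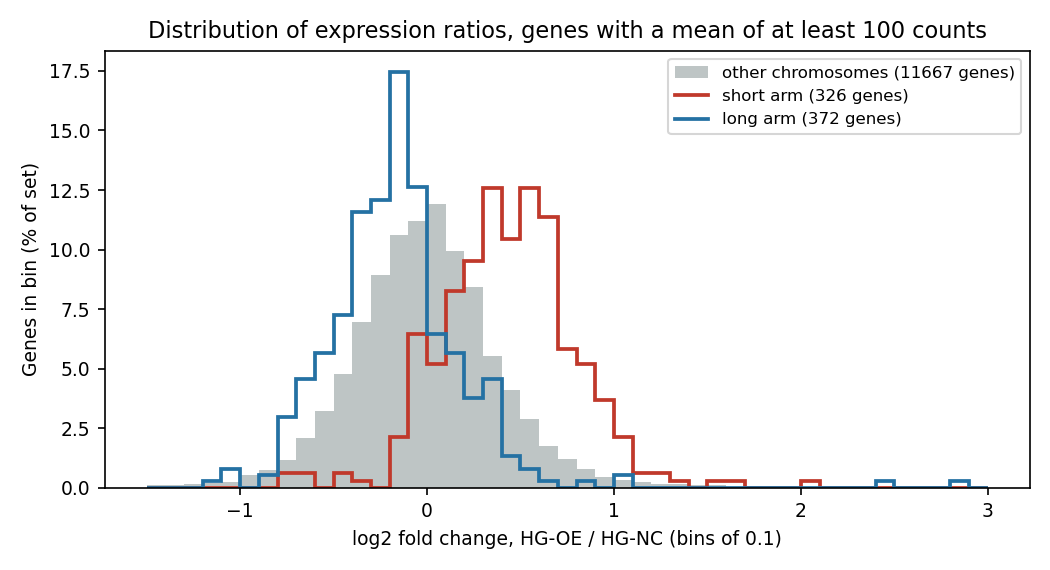
The x axis gives the log2 fold change of HG-OE over HG-NC in bins of 0.1, and the y axis the percentage of each set in a bin, for the 326 short-arm genes (red line), the 372 long-arm genes (blue line) and 11667 genes of the other chromosomes (grey). The short-arm distribution is moved to the right of the grey one, with its median at 0.43, and the long-arm distribution to the left, with its median at -0.17.

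Ordered by position and divided where the median changed, the 698 genes fell into 2 segments. The first held 323 genes, from TRNT1 (chr3:3126933) to CHMP2B (ending at chr3:87255556), with a median of 0.44 and a middle range from the lower to the upper quartile of 0.21 to 0.65. The second held 375 genes, from CGGBP1 (chr3:88051944) to LMLN (ending at chr3:198043720), with a median of -0.17 and quartiles of -0.38 and -0.02. In the first segment 290 genes had a log2 fold change above 0 (89.8%), and in the second 284 had one below 0 (75.7%). When a single HG-NC library was set against the other HG-NC libraries and divided the same way, 1 segment was found each time.

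The edge between the segments lay at 87.67 Mb, the middle of the gap between CHMP2B and CGGBP1, which is on the short arm before the stretch without protein-coding genes. CHMP2B, a subunit of the ESCRT-III complex of membrane remodelling, had 42.3, 41.2 and 40.1 CPM in HG-NC and 49.0, 46.7 and 73.3 CPM in HG-OE. Its HG-OE libraries all lay above HG-NC, and replicate 3 lay far above the other HG-OE libraries. Its log2 fold change was 0.45 ± 0.127 (SE) with that library and 0.22 without it. CGGBP1, which binds CGG repeats, had 65.9, 62.3 and 62.1 CPM in HG-NC and 64.0, 62.0 and 68.2 CPM in HG-OE, and the groups overlapped.

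The genes around the edge did not step cleanly from one level to the other. ROBO1, an axon guidance receptor at chr3:78597239-79767998, had 10.2, 9.27 and 8.77 CPM in HG-NC and 14.6, 14.01 and 15.3 CPM in HG-OE, with no overlap and a log2 fold change of 0.64 ± 0.0909 (SE). GBE1, the glycogen branching enzyme that follows it, had 53.3, 53.4 and 55.4 CPM in HG-NC and 51.9, 51.4 and 53.9 CPM in HG-OE, and these overlapped. After CGGBP1, the log2 fold changes of ZNF654, C3orf38 and, across the gene-free stretch, PROS1 were -0.05, -0.07 and -0.04, and in all 3 the groups overlapped. Further along the long arm, NSUN3 at -0.41, ARL6 at -0.76 and RIOX2 at -0.63 were lower without overlap.

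Without HG-OE replicate 3, the edge lay between ROBO1 and GBE1 at 80.4 Mb, and the same position was found when HG-OE replicate 1 or replicate 2 was taken alone. In HG-OE replicate 3 alone it lay at 87.67 Mb. The 2 positions differ by 2 tested members, GBE1 and CHMP2B. VGLL3, a transcription cofactor in the same interval, passed the rule on mean counts but not the filter on low counts, with 2, 1 and 1 counts in HG-NC and 4, 2 and 3143 counts in HG-OE. It was not tested, and 99.8% of its HG-OE counts came from replicate 3. TF, which encodes the iron carrier transferrin on the long arm, was the other member left untested, with 0, 0 and 11 counts in HG-NC and 1, 0 and 1006 counts in HG-OE.

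In 10 Mb windows, the medians of the first 8 windows, up to 80 Mb, lay between 0.16 and 0.54, and those of the 12 windows from 80 Mb on lay between -0.46 and -0.04. Within the short arm the highest median, 0.54, was that of 75 genes between 50 and 60 Mb, where 72 genes lay above 0, followed by 0.50 for 95 genes between 40 and 50 Mb and 0.50 for 29 genes in the first 10 Mb. The lowest were 0.16 for 16 genes between 20 and 30 Mb and 0.23 for 19 genes between 60 and 70 Mb. On the long arm, the medians lay farthest below 0 for 17 genes between 160 and 170 Mb, at -0.46, for 16 genes between 90 and 100 Mb, at -0.38, and for 25 genes between 170 and 180 Mb, at -0.36. They were closest to 0 between 120 and 130 Mb (-0.09 for 68 genes) and between 180 and 190 Mb (-0.09 for 44 genes). The 3 HG-OE libraries followed the same course of windows.

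**Figure D3:**
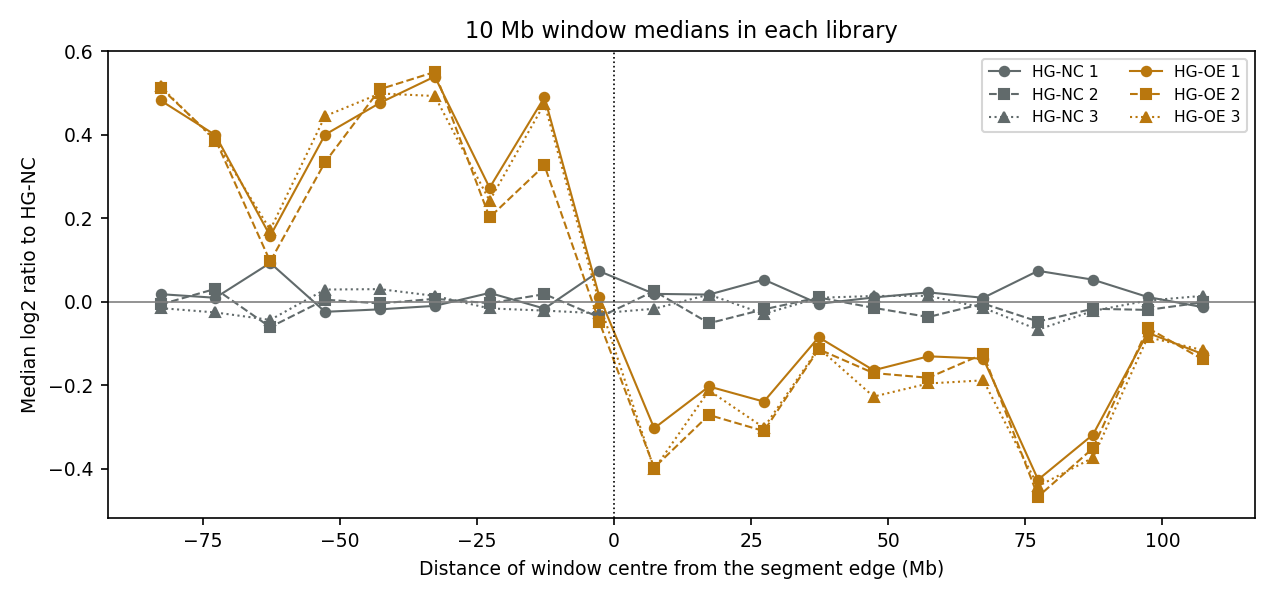
Lines join the median log2 ratio to the mean of HG-NC (y axis) in 20 windows of 10 Mb, placed by the distance of the window's centre from the segment edge in Mb (x axis), for each of the 6 libraries. For an HG-NC library the ratio is to the mean of the other HG-NC libraries. The HG-NC libraries (grey) stay near 0, and the HG-OE libraries (orange) run together, with window medians of the fitted ratio from 0.16 to 0.54 in the 8 windows up to 80 Mb and from -0.46 to -0.04 in the other 12.

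A lower penalty for added segments, at 0.5 of its value, divided the short arm further and gave 5 segments. The added edges lay at 14.3 Mb between LSM3 and SLC6A6, where the median went from 0.50 to 0.14, at 32.9 Mb between CNOT10 and GLB1, where it went from 0.14 to 0.55, and at 52.7 Mb between SPCS1 and NEK4, where it went from 0.55 to 0.33. The edge at 87.67 Mb remained among them. With squared in place of absolute deviations there were 7 segments, whose short-arm edges lay at 46.8, 56.0 and 87.67 Mb and whose long-arm edges lay at 139.5, 145.1 and 183.6 Mb.

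Genes within a segment differed from each other by far more than their own errors. The SD around the segment median, estimated from the median absolute deviation, was 0.33 in the first segment and 0.28 in the second, while the median SE of a gene was 0.0643 and 0.0578. The range ran from -0.76 to 2.08 in the first and from -1.14 to 2.81 in the second. Over 11667 genes of the other chromosomes the same SD was 0.35 around a median of -0.01. Once the segment was set, neighbours resembled each other weakly, with a Spearman correlation between adjacent genes of 0.20 over 322 pairs in the first segment and 0.10 over 374 pairs in the second, against 0.56 over 697 pairs along the whole chromosome. These pairs share their libraries and each gene enters 2 of them.

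Set beside the other 22 chromosomes with the same filter, chromosome 3 had an ordinary median and a wide division. The largest difference in median between the parts on either side of a single position, with at least 50 genes in each, was 0.62 on chromosome 3 and 0.053 to 0.48 on the others, with chromosome 20 next. The medians of the other chromosomes ran from -0.28 on chromosome 2 to 0.30 on chromosome 22. Divided into segments in the same way, the other chromosomes gave 1 to 3 segments each, so a division into segments was not particular to chromosome 3. These are descriptions of the same libraries, and no test was made.

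Pairs of members that start head to head within 1000 bases lay closer together than neighbours in general. Over 61 such pairs the median difference in log2 fold change was 0.19, against 0.27 over all 697 neighbouring pairs. The contrast was smaller on the short arm, with 0.24 over 24 pairs against 0.28 for neighbours. On the long arm it was 0.19 over 37 pairs against 0.26. TADA3 and MRPL47 recur among the pairs. ATG3, the conjugating enzyme of LC3 lipidation in autophagy, and SLC35A5, a nucleotide sugar transporter family member, were both at -0.45. WDR53 and FBXO45, both linked to ubiquitin ligases, were at -0.32 each, and IQCB1 and EAF2 at -0.67 each. The pairs farthest apart were COPB2 with the long noncoding RNA RP11-319G6.1, by 1.18, and CLDN1 with CLDN16, by 1.01.

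On the short arm, shorter genes stood higher. The 109 shortest, of 1.21 to 20.9 kb, had a median of 0.55, the 108 of middle length 0.40 and the 109 longest 0.36, with a Spearman correlation of -0.23 over 326 genes. The correlation with length was 0.082 over 372 long-arm genes and -0.14 over 11659 genes elsewhere. For genes of low, middle and high mean CPM, the medians were 0.49, 0.39 and 0.44 on the short arm, with a Spearman correlation of -0.013, and -0.10, -0.22 and -0.19 on the long arm, with a correlation of -0.20. The GC content of the promoter, with a median of 65.6% on the short arm and 63.2% on the long arm, had a Spearman correlation with the log2 fold change of -0.043 and 0.053 over 280 and 312 genes. Of the long noncoding RNAs, 7 short-arm members had a median of 0.48, like the coding genes there, and 19 long-arm members had a median of 0.06, above the -0.18 of the coding genes.

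The ordinary course of the short arm can be read from genes near its median. PRICKLE2, a planar cell polarity protein and the coding gene nearest the median, had 39.5, 39.1 and 41.6 CPM in HG-NC and 55.9, 57.6 and 49.1 CPM in HG-OE. The most counted members, RPSA and RPL15, both of the ribosome, lay above it. RPSA had 1008, 950 and 998 CPM in HG-NC and 1677, 1743 and 1811 CPM in HG-OE. All HG-OE libraries lay above HG-NC in each of these genes, and the log2 fold changes were 0.44, 0.82 and 0.74.

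On the long arm, ACAP2, a GTPase-activating protein for ARF6 and the coding gene nearest the median, had 36.5, 37.7 and 36.5 CPM in HG-NC and 33.1, 33.5 and 31.8 CPM in HG-OE. CLDN1, a claudin of tight junctions and one of the 2 most counted members, had 1254, 1211 and 1230 CPM in HG-NC and 724, 669 and 625 CPM in HG-OE, for a log2 fold change of -0.87 ± 0.0469 (SE). DCBLD2, a transmembrane receptor and the other, had 972, 935 and 953 CPM in HG-NC and 685, 693 and 664 CPM in HG-OE. The groups did not overlap in any of these genes, though ACAP2 differed by much less than CLDN1.

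Members were grouped by function in 9 lists of chromosome 3 genes, and each list stood on both sides of 0 according to the arm its genes were on. On the short arm the medians of the lists ran from 0.37 to 0.84 and on the long arm from -0.30 to -0.09, beside arm medians of 0.43 and -0.17. The 0.84 is that of 5 transport genes and became 0.46 with a mean of at least 200 counts. Without HG-OE replicate 3 the list medians ran from 0.37 to 0.81 on the short arm and from -0.32 to -0.09 on the long arm. Without it, the short-arm median of DNA replication, repair and cell cycle went from 0.43 to 0.37. That of mitochondria and metabolism went from 0.41 to 0.46 on the short arm and from -0.23 to -0.18 on the long arm. The long-arm median of ribosome and translation went from -0.13 to -0.16. The counts below give members at an adjusted p under 0.05 and are to be read against the shares of their arm. These were 78.5% higher and 1.84% lower on the short arm, and 12.1% higher and 53.8% lower on the long arm. Over all genes tested the share was 25.9% in each direction, and with a mean of at least 100 counts 29.7% and 32.2%.

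**Figure D4:**
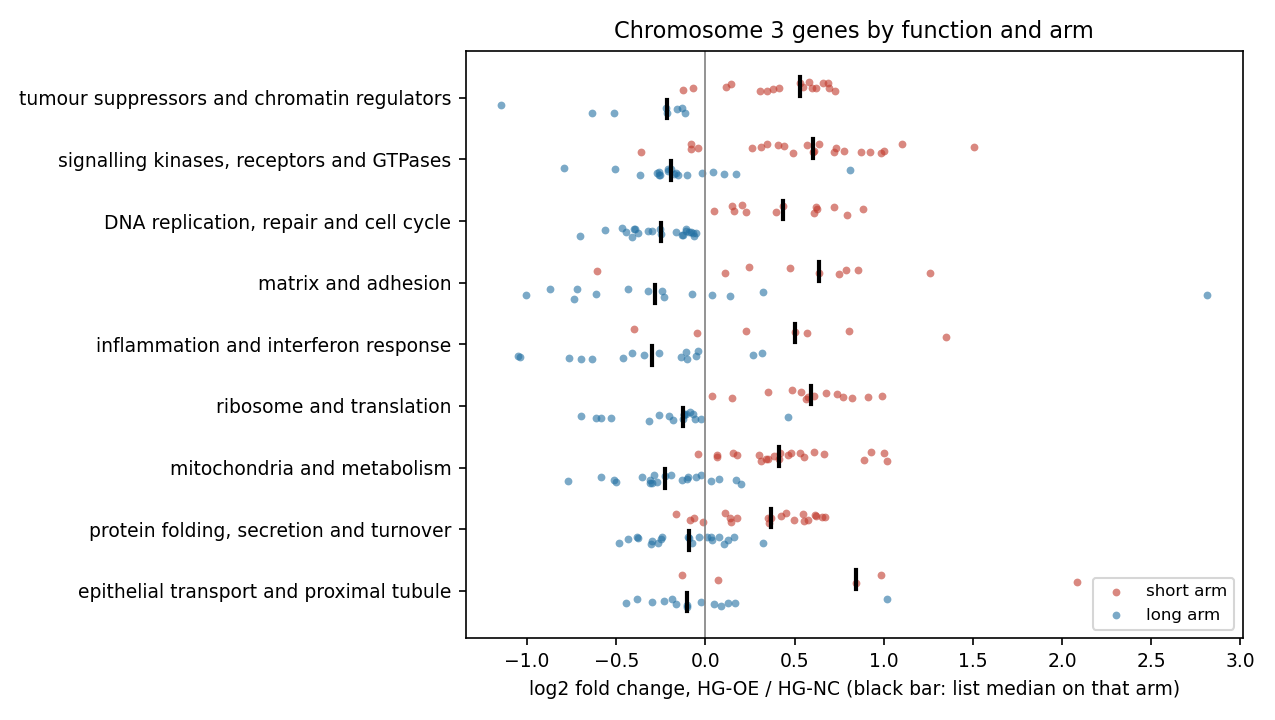
Points are members of 9 functional lists, split into short-arm (red) and long-arm (blue) genes, with the log2 fold change of HG-OE over HG-NC on the x axis and a black bar at the median of each list on each arm. The red medians lie between 0.37 and 0.84 and the blue medians between -0.30 and -0.09.

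Among tumour suppressors and chromatin regulators, 14 of 17 short-arm members were higher and none lower, with a median of 0.53, and 7 of 8 long-arm members were lower and none higher, with a median of -0.22. VHL, which targets hypoxia-inducible factors for degradation, had 65.5, 59.8 and 60.4 CPM in HG-NC and 91.7, 94.5 and 85.05 CPM in HG-OE. PBRM1, a subunit of the PBAF remodelling complex, had 17.0, 17.9 and 17.2 CPM in HG-NC and 28.0, 27.1 and 29.3 CPM in HG-OE. BAP1, a deubiquitinase of histone H2A, had 68.5, 69.6 and 68.3 CPM in HG-NC and 101, 111 and 101 CPM in HG-OE. All 3 genes were higher in every HG-OE library, with log2 fold changes of 0.55, 0.70 and 0.60, and SETD2, a histone methyltransferase, followed at 0.31. RASSF1 at -0.12 and FOXP1 at 0.11 did not pass and overlapped between the groups. GATA2, a zinc finger transcription factor of the long arm, had the lowest log2 fold change of all tested members, -1.14 ± 0.113 (SE), with 19.3, 22.0 and 18.3 CPM in HG-NC and 8.30, 7.97 and 10.7 CPM in HG-OE. HLTF, a translocase of replication fork repair, was at -0.63.

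In the list of signalling kinases, receptors and GTPases, 19 of 23 short-arm members were higher and 1 lower (median 0.61), and 2 of 19 long-arm members were higher and 12 lower (median -0.19). TGFBR2, the type II receptor for TGF-beta, had 25.9, 25.1 and 27.3 CPM in HG-NC and 47.4, 45.2 and 55.7 CPM in HG-OE, for a log2 fold change of 0.92 ± 0.0749 (SE). RHOA, a GTPase of the actin cytoskeleton, was at 0.61, CTNNB1, which encodes beta-catenin, at 0.44, and MAPKAPK3, a kinase downstream of p38, at 1.10. WNT5A, a Wnt ligand, had 11.1, 9.75 and 11.1 CPM in HG-NC and 28.6, 31.3 and 30.9 CPM in HG-OE. The short-arm member that was lower was NR1D2, a repressor of the circadian clock. PIK3CA had 45.5, 40.8 and 43.7 CPM in HG-NC and 32.05, 29.3 and 30.01 CPM in HG-OE, for a log2 fold change of -0.51 ± 0.0591 (SE), and EPHB1, an ephrin receptor, was at -0.79. PLXND1, a semaphorin receptor of the long arm, went the other way at 0.81, with 58.8, 62.4 and 60.8 CPM in HG-NC and 107, 110 and 101 CPM in HG-OE.

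For DNA replication, repair and the cell cycle, 10 of 13 short-arm members were higher and none lower (median 0.43), and 14 of 22 long-arm members were lower and none higher (median -0.25). On the short arm, ATRIP, the partner of the checkpoint kinase ATR, was at 0.89 and XPC, a damage sensor of nucleotide excision repair, at 0.79. ATR itself lies on the long arm and was at -0.11. SMC4, a condensin subunit of the long arm, had 207, 191 and 177 CPM in HG-NC and 117, 115 and 121 CPM in HG-OE, for a log2 fold change of -0.70. ECT2, a RhoA exchange factor of cytokinesis, was at -0.39.

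Matrix and adhesion genes had 7 of 9 short-arm members higher and 1 lower (median 0.64), and 1 of 14 long-arm members higher and 9 lower (median -0.28). COL7A1, whose promoter is shown above, had 101 CPM in each HG-NC library and 245, 261 and 218 CPM in HG-OE, for a log2 fold change of 1.26 ± 0.0562 (SE). DAG1, a receptor for laminin, was at 0.85. On the long arm, PLOD2, a lysyl hydroxylase of collagen, had 380, 359 and 359 CPM in HG-NC and 186, 180 and 181 CPM in HG-OE, for a log2 fold change of -1.005 ± 0.0389 (SE). CLDN11 was at -0.74, CD47, which signals to phagocytes, at -0.72, and FNDC3B at -0.61. The members past the threshold outside the direction of their arm were ADAMTS9 and CLSTN2.

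In inflammation and the interferon response, 5 of 7 short-arm members were higher and none lower (median 0.50), and 2 of 16 long-arm members were higher and 10 lower (median -0.30). MYD88, the adaptor of Toll-like receptors, had 8.18, 9.31 and 9.02 CPM in HG-NC and 20.02, 21.8 and 25.7 CPM in HG-OE, a ratio of 2.55, and IRAK2, a kinase downstream of it, was at 0.50. PTX3 had 267, 262 and 255 CPM in HG-NC and 135, 126 and 117 CPM in HG-OE, for a log2 fold change of -1.05 ± 0.0494 (SE). IL12A, a cytokine subunit of the interleukin 12 family, had 14.4, 12.7 and 12.5 CPM in HG-NC and 8.13, 5.50 and 5.60 CPM in HG-OE. Each of these genes kept its groups apart. NFKBIZ, a nuclear coregulator of NF-kB, was at -0.46, BCL6, a transcriptional repressor, at -0.76, and PLSCR1, an interferon-stimulated gene, at -0.70. The long-arm members that were higher were TNFSF10, which encodes the death ligand TRAIL, at 0.32 and IL20RB, a cytokine receptor chain, at 0.27.

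Ribosome and translation genes had 13 of 14 short-arm members higher and none lower (median 0.59), and 1 of 17 long-arm members higher and 11 lower (median -0.13). Of the ribosomal protein genes, RPSA, RPL14, RPL15 and RPL29 of the short arm were at 0.82, 0.77, 0.74 and 0.67, and RPL24 and RPL35A of the long arm at -0.12 each, though the groups overlapped in RPL24. RPL14 had 481, 442 and 465 CPM in HG-NC and 787, 776 and 808 CPM in HG-OE. RPL35A had 707, 672 and 698 CPM in HG-NC and 632, 629 and 650 CPM in HG-OE. The RNA of RPL14 was higher in every HG-OE library and that of RPL35A lower in every one. Ribosomal protein genes have many processed pseudogenes in the genome, so their counts depend on which reads were taken as uniquely mapped. QARS1, the glutaminyl-tRNA synthetase, was at 0.91, and EIF4A2, a helicase of translation initiation on the long arm, at -0.70.

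Of the mitochondrial and metabolic genes, 19 of 22 on the short arm were higher and none lower (median 0.41), and of 21 tested on the long arm 2 were higher and 12 lower (median -0.23). UQCRC1, a core subunit of respiratory complex III, had 146, 151 and 151 CPM in HG-NC and 271, 283 and 276 CPM in HG-OE, for a log2 fold change of 0.89. PFKFB4, a regulator of glycolysis, was at 0.93, and TKT, the transketolase of the pentose phosphate pathway, at 0.61. ACAA1, a peroxisomal thiolase, had 18.8, 20.2 and 19.4 CPM in HG-NC and 34.7, 32.7 and 49.95 CPM in HG-OE, with replicate 3 highest, and its log2 fold change went from 1.00 to 0.79 without that library. On the long arm COX17, a copper chaperone, was at -0.51 and ACAD11, an acyl-CoA dehydrogenase, at -0.77. TFRC, the transferrin receptor, was at -0.19.

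Genes of protein folding, secretion and turnover had 17 of 21 short-arm members higher and none lower (median 0.37), and 2 of 21 long-arm members higher and 11 lower (median -0.09). MANF, a secreted factor of the endoplasmic reticulum stress response, was at 0.67 and SEC13, a coat protein of secretory vesicles, at 0.62. SEC62, a subunit of the translocon on the long arm, was at -0.48, and SEC61A1, which forms the channel itself, was at -0.04 and did not pass. In epithelial transport and the proximal tubule, 3 of 5 short-arm members were higher and none lower (median 0.84), and 1 of 14 long-arm members was higher and 7 lower (median -0.10). SLC26A6, an anion exchanger of the proximal tubule, was at 0.84 and HYAL2, a hyaluronidase, at 0.99. Of the squamous epithelium list, COL7A1, CLDN1 and LIPH were members, with LIPH at -0.14 and not past the threshold, and of the hepatocyte list TF alone was a member.

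The genes farthest above their segment included cell surface and signalling genes of both arms. CLSTN2, a synaptic adhesion protein of the calsyntenin family, had 14.5, 12.9 and 12.1 CPM in HG-NC and 95.2, 96.0 and 86.0 CPM in HG-OE. CHST2, a sulfotransferase of cell surface glycans, had 0.944, 1.77 and 1.61 CPM in HG-NC and 6.995, 8.17 and 8.16 CPM in HG-OE. Both lie on the long arm, against whose median they stood 2.98 and 2.59 log2 units higher, and their log2 fold changes were 2.81 ± 0.0709 and 2.42 ± 0.192 (SE).

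On the short arm, CACNA2D3, an auxiliary subunit of voltage-gated calcium channels, had 2.12, 2.22 and 2.72 CPM in HG-NC and 9.96, 10.1 and 9.94 CPM in HG-OE, for a log2 fold change of 2.08 ± 0.129 (SE). GXYLT2, a xylosyltransferase that modifies Notch, had 2.24, 2.55 and 2.22 CPM in HG-NC and 7.72, 7.45 and 6.28 CPM in HG-OE. It overlaps PPP4R2 on the same strand, so reads in the shared stretch cannot be assigned with certainty. Same-strand overlaps also exist for CACNA2D3 with RPS15P5 and, on the long arm, for CHST2 with ENSG00000241679. RP11-319G6.1 overlaps ACTG1P1 and NFKBIZ overlaps NXPE3 in the same way. WNT5A, given above, also stood more than 1 log2 unit above its segment. CACNA2D3, GXYLT2 and WNT5A have the direction of their segment and exceed its size.

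Long-arm genes that were higher in every HG-OE library numbered 50 of the 375 in the second segment, against 29.6% of all genes tested and 32.6% of those with a mean of at least 100 counts. MME, which encodes neprilysin, a peptidase of the proximal tubule brush border, had 3.58, 5.17 and 4.04 CPM in HG-NC and 8.13, 8.86 and 8.91 CPM in HG-OE, for a log2 fold change of 1.02 ± 0.138 (SE). The long noncoding RNA RP11-319G6.1, which overlaps NMNAT3 on the opposite strand, had 4.01, 4.32 and 4.76 CPM in HG-NC and 9.58, 9.10 and 9.01 CPM in HG-OE. DLG1, a scaffold of cell polarity, was at 0.56 and MGLL, a monoacylglycerol lipase, at 0.48, with 166, 175 and 163 CPM in HG-NC and 237, 242 and 223 CPM in HG-OE. TNFSF10 and PLXND1, given above, had the same direction.

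In the first segment, 8 of 323 genes were lower in every HG-OE library, against 29.4% of all genes tested and 35.2% of those with a mean of at least 100 counts. FRMD4B, a scaffold of epithelial polarity, had 16.2, 16.6 and 15.4 CPM in HG-NC and 9.86, 9.14 and 9.46 CPM in HG-OE, for a log2 fold change of -0.76 ± 0.0832 (SE). ADAMTS9, a secreted metalloproteinase of the matrix, had 53.5, 61.7 and 61.5 CPM in HG-NC and 39.1, 40.3 and 36.8 CPM in HG-OE, for a log2 fold change of -0.61 ± 0.0629 (SE). Both lie in the window from 60 to 70 Mb, whose median was 0.23. LRRN1, a leucine-rich repeat membrane protein that overlaps SUMF1 on the opposite strand, was at -0.71, and ZNF502, a zinc finger gene, at -0.63. CAMK1, a calmodulin-dependent kinase that overlaps OGG1 on the opposite strand, was at -0.42 and NR1D2 at -0.36, while SLC4A7 at -0.13 and CAPN7 at -0.10 lay apart without overlap and did not pass the adjusted threshold.

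**Figure D5:**
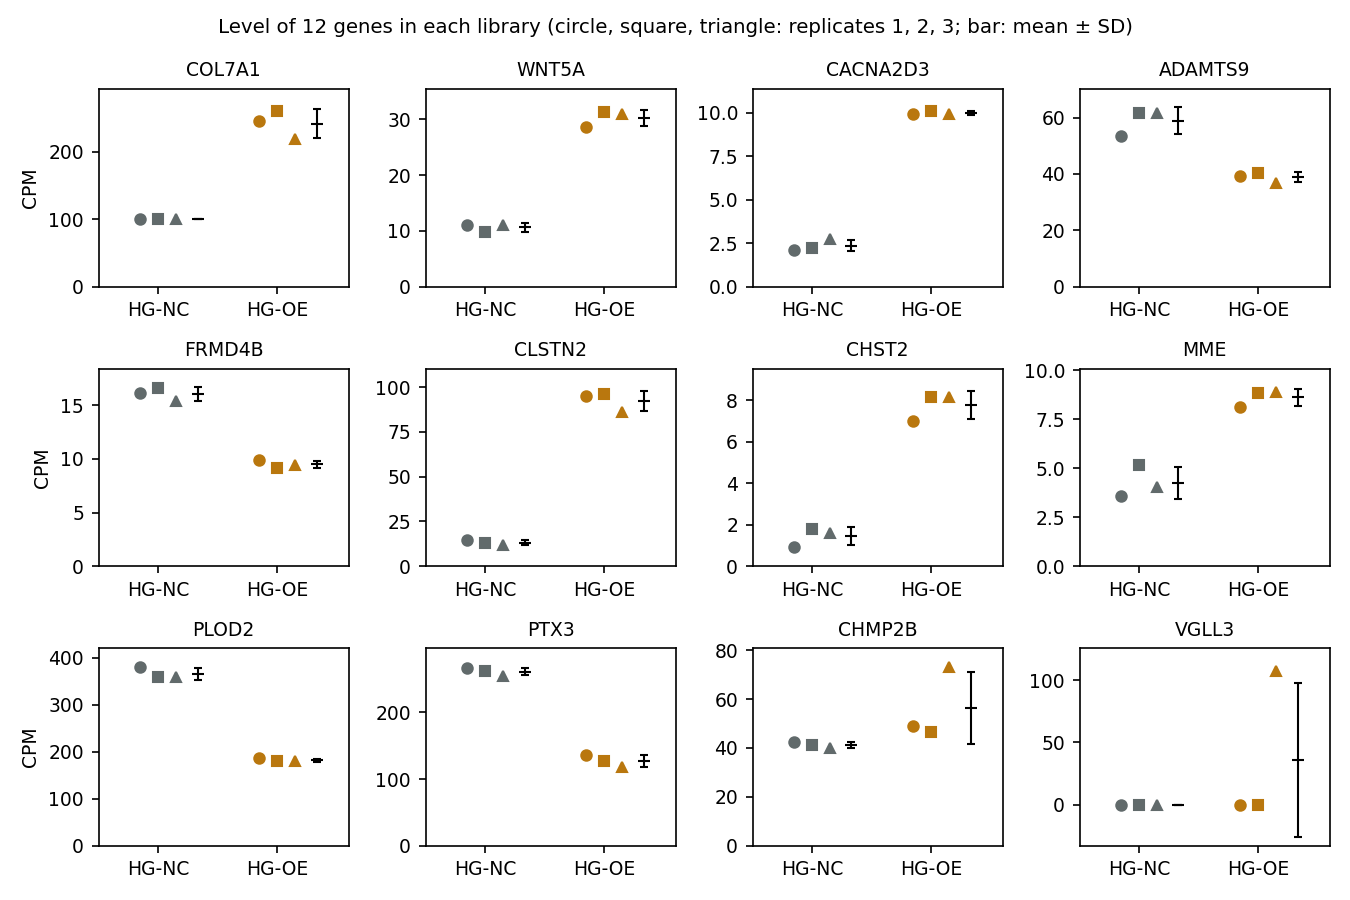
Panels show 12 chromosome 3 genes with the level in CPM on a linear y axis, HG-NC in grey and HG-OE in orange, the circle, square and triangle being replicates 1, 2 and 3, and the bar the mean ± SD of 3 libraries. In 10 of them the groups are apart and the libraries of a group close together, while in CHMP2B and VGLL3 HG-OE replicate 3 lies far above the other libraries, with 3143 counts of VGLL3 against at most 4 elsewhere.

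Altogether 11 members lay 1 log2 unit or more from the median of their segment, 7 above and 4 below. They were CLSTN2, CHST2, RP11-319G6.1 and MME of the second segment, and CACNA2D3, GXYLT2, WNT5A, FRMD4B, LRRN1, ZNF502 and ADAMTS9 of the first. GATA2, at 0.97 below its segment, was the long-arm gene farthest below. At the limit of the rule on mean counts, CFAP44 with a mean of 100 counts and CCDC191 with 102 were just inside, at -0.08 and 0.24, and KCNMB3 and TBILA, both with 99.8, were just outside, at -0.92 and -0.15.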

How the data were processed

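Poly(A) RNA of HK-2 cells was sequenced as directional paired-end libraries. The values used are counts that the authors deposited, taken as they are. They are whole numbers of uniquely mapped reads per gene, from trimmed reads that HISAT2 had placed on GRCh38. The authors also deposited FPKM values made from the same reads. They name a batch correction with ComBat_seq, and whether it entered these counts is not given in the sources used here. The study used parallel wells for each group and calls the libraries biological replicates, without saying which wells the libraries came from. The p-values therefore measure only the spread between these libraries, which may be technical.

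Counts of all genes were fitted in R 4.3.3 with edgeR 4.0.16 (TMM, default filter on low counts, quasi-likelihood test, group as the only term), and p-values were adjusted by Benjamini-Hochberg over 17142 genes. Of the 700 members, 698 passed the filter, and VGLL3 and TF did not. Totals per library were 25507595 to 29444841 counts, and a count of 0 allows up to 3 counts, for counting error only. A called gene had an adjusted p under 0.05, with or without a 2-fold change.

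Positions came from GENCODE release 44 on GRCh38, matched by gene ID without version for all 700 members, of which 549 had the same version. Segments were found by optimal partitioning of the log2 fold changes in order of gene midpoint, with absolute deviations from the median, at least 10 members in a segment and a penalty per added segment of 3 times the scale between neighbours (0.282) times the natural logarithm of the number of members. Log2 ratios of single libraries used CPM with a prior count of 2. Promoters of 592 members were matched by symbol to the RefSeq table. The steps were tested on simulated data.

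The members and lists were chosen with earlier results of these data known. Genes were named by rule: members of the lists, the 2 most counted members and the coding member nearest the median in each segment, the members flanking the edge, the 5 coding members farthest above and the 5 farthest below their segment without overlap, and members of the opposite sign. Other members named were chosen after their values were seen. Alternatives were the size factors and the Wald test of DESeq2 1.42.0, no filter, at least 10 counts in every library, means of at least 50 or 200 counts, coding members only, other segment settings, a replicate block and each library left out. Differences between the group means of log2(FPKM + 1) and of log2(FPKM + 0.1) were also taken, without a test. Same-numbered libraries of the groups did not deviate together, so no pairing was used. The mannitol libraries and the splicing and CLIP data were not analysed here.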

Additional observations from a re-analysis of the deposited data

How the results depend on the processing

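Of the values of the main results recomputed under the alternatives, 143 stayed within the spread between replicates or within 1.5 times the main count, 23 moved further, and none changed sign. The short-arm median of 0.43 became 0.42 without a low-count filter, 0.44 with at least 10 counts in every library, 0.31 on log2(FPKM + 1), 0.40 on log2(FPKM + 0.1), 0.45 with a mean of at least 50 counts and 0.43 to 0.45 when each library was left out. The long-arm median of -0.17 became -0.15 on log2(FPKM + 1) and -0.19 to -0.16 when each library was left out. The log2(FPKM + pseudocount) scale understates the change of low genes. The 19 members higher by 2-fold became 12 with a mean of at least 200 counts. The 4 members lower by 2-fold became 7 with a mean of at least 50 counts, and 1 to 4 when each library was left out, with 2 without HG-NC replicate 1, 2 without HG-OE replicate 2 and 1 without HG-OE replicate 3, since PLOD2, PTX3 and IL12A lay close to 2-fold. The 2 segments became 5 at a penalty of 0.5 of its value and 7 with squared deviations. The edge of 87.67 Mb moved to 80.4 Mb without HG-OE replicate 3 and ranged from 80.4 to 87.67 Mb when each library was left out. The SD around the segment medians, 0.30 over both segments, was 0.25 on log2(FPKM + 1) and 0.28 at the lower penalty. The 11 members 1 log2 unit or more from their segment became 2 on log2(FPKM + 1) and 4 with a mean of at least 200 counts. Of the medians of the functional lists on each arm, 228 recomputed values stayed within the spread between replicates and 42 moved further, with no change of sign. Those that moved by over 1.5 times were all on the short arm. On log2(FPKM + 1), inflammation and interferon response went from 0.50 to 0.17, matrix and adhesion from 0.64 to 0.35, tumour suppressors and chromatin regulators from 0.53 to 0.31, DNA replication, repair and cell cycle from 0.43 to 0.28 and signalling from 0.61 to 0.40, and with a mean of at least 200 counts epithelial transport went from 0.84 to 0.46. The Wald test of DESeq2 called the same numbers at 2-fold, 19 higher and 4 lower. Of single genes, 22 recomputed values fell short of the 2-fold call and 8 newly passed it, with ACAA1 smallest in size, at 0.79 without HG-OE replicate 3.

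The replicate numbers did not pair the libraries, with correlations between deviations of same-numbered libraries of -0.027, 0.03 and -0.00099. With the number as a replicate block, the calls were 18 higher and 4 lower at 2-fold and 302 and 209 without the fold, the arm medians 0.43 and -0.17, the edge 87.67 Mb, and 11 members lay 1 log2 unit or more from their segment. Depth limited single genes: on the short arm the median SE of a gene was 0.102 in the third with the lowest mean CPM, of 3.61 to 20.04 CPM, and 0.0472 in the third with the highest.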
